A study of Mus musculus with 8 samples.

Results

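The BMP and TGF-beta pathways were examined in whisker follicles through 37 genes, set by name and grouped into 9 ligands, 5 extracellular antagonists and latency proteins, 9 receptors, 8 Smads, 4 Id genes and 2 Smad corepressors. All 37 were found on the array and all 37 passed the filter on dim probes, out of 25353 genes tested and 37018 represented. To pass, a gene's brightest probe had to exceed background clearly on 3 or more of the 4 arrays in one of the groups. Both groups were female ApcMin/+ mice. Their germ line holds 1 truncated copy of Apc, a gene of the Wnt pathway. The E7386 group received E7386, a compound described as blocking the interaction of beta-catenin with the coactivator CBP, by mouth at 30 mg/kg in 2 doses a day. Dosing ran for 4 cycles of 5 days with compound and 2 days without, from 8 weeks of age, and follicles were taken 6 h after the last dose. The vehicle group is labelled only as having received vehicle. There was no wild-type group, so each comparison here is of E7386 with vehicle in Apc-mutant tissue.

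Ligands of the BMP and TGF-beta family bring together type I and type II receptor kinases. These phosphorylate Smad1, Smad5 and Smad9 for BMPs, or Smad2 and Smad3 for TGF-betas and activins, and the phosphorylated Smads enter the nucleus with Smad4. Secreted antagonists bind the ligands outside the cell, Smad6 and Smad7 act as feedback inhibitors, and Id genes are direct targets of BMP Smads. In the hair follicle, BMP signalling is known for keeping bulge stem cells at rest and for the differentiation of the hair shaft, while noggin and TGF-beta 2 are known for helping a new growth phase to start.

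Each sample had its own 1-colour array, and precision is limited by how many arrays there are. Signals below are log2 of the processed intensity relative to the array's 75th percentile, which ranged from 459.4 to 656.2 in intensity units, so a value of 0 is a spot at that percentile. The share of transcript spots well above background was 61.5% to 61.9% on E7386 arrays and 62.2% to 64.7% on vehicle arrays. All 8 arrays lay on 1 slide, E7386 in row 2 and vehicle in row 1, so row and treatment cannot be told apart. The scanner program's detection limit metric was out of range on E7386 replicate 4 and vehicle replicates 1 and 2. The labels do not say whether samples came from separate mice, and p-values then measure the spread between these samples only. The labelled tissue was borne out by its defining markers. All 5 outer root sheath markers, all 6 measured shaft and matrix markers and all 6 inner root sheath markers were well above background on all 8 arrays. Skeletal muscle RNA varied most, with a summed signal of 8 markers of 116 to 742 times the array's 75th percentile with E7386 and 86.3 to 661 times with vehicle.

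Of the 37 genes, 1 was higher with E7386 at an adjusted p under 0.05 over all genes, and 0 were lower (limma, n = 4 per group, with 6 higher and 1 lower at an unadjusted p under 0.05). With the replicate number as a block, 0 of the 37 and 59 of all genes were called, against 284 of all genes without it. In that blocked limma fit, 6 of the 37 and 4261 of all 25353 genes had an unadjusted p under 0.05. The gene that rose was Tgfbr3, which encodes the coreceptor betaglycan, at 1.72-fold. The called share was 2.7%, against 1.12% of all genes tested, in which 0.753% were called higher and 0.367% lower. The next gene was Fst, encoding the activin antagonist follistatin, at 1.63-fold and just short of the threshold. At an unadjusted p under 0.05 there were 7 of the 37, against 15.2% of all genes, of which 7.47% were higher and 7.72% lower. The groups of arrays did not overlap for 6 of the 37, or 16.2%, against 10.5% of all genes. With E7386 higher this was so for 5 of the 37, against 4.83% of all genes. A change of at least 1.5-fold was measured for 4 of the 37, Inhba, Grem1, Fst and Tgfbr3, against 5.29% of all genes. Means were lower with E7386 for 17 of the 37, or 45.9%, against 48% of all genes. The median log2 change was 0.0066 over the 37 genes and 0.0088 over all genes, and the median size of change, whatever its sign, was 0.11 over the 37 and 0.13 over all genes.

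**Figure D1:**
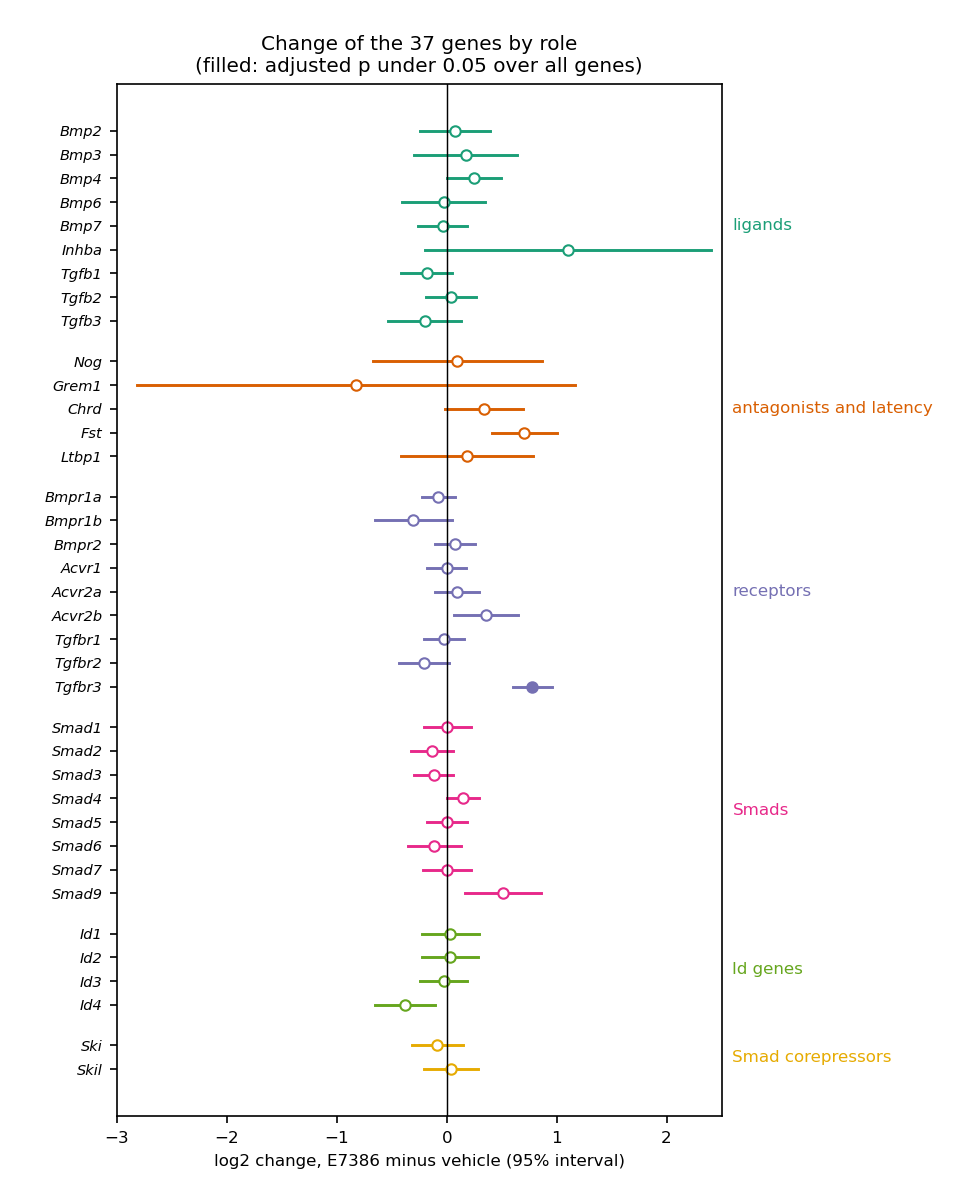
Log2 change (E7386 minus vehicle, horizontal axis) of each of the 37 genes, grouped by role, with its 95% interval from limma as a line. The filled point, Tgfbr3 at 0.78, is the gene past the adjusted threshold, and the wide intervals of Inhba and Grem1 reflect arrays that differ within a group.

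For 25 of the 36 genes that were not called, the 95% interval of the change lay within 1.5-fold in either direction. The 11 with a wider interval were Bmp3, Inhba, Nog, Grem1, Chrd, Fst, Ltbp1, Bmpr1b, Acvr2b, Smad9 and Id4. These intervals are per gene and are not adjusted for the number of genes.

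Among receptors, Tgfbr3 encodes betaglycan, a membrane proteoglycan that presents TGF-beta 2 to the signalling receptors and also binds inhibin. Its signals were 3.27, 3.33, 3.43 and 3.31 in E7386 replicates 1 to 4, against 2.58, 2.62, 2.40 and 2.62 in vehicle replicates 1 to 4. Every E7386 array lay above every vehicle array, by far more than the spread within either group. The log2 change was 0.78 (SE 0.078, limma adjusted p = 0.00473), with means of 3.33 ± 0.067 with E7386 and 2.55 ± 0.10 with vehicle (SD, n = 4 each). The array carries 1 probe for the gene among those matched. The call was kept in each of the 8 fits without 1 array, with changes of 0.73 to 0.80. It ended with the replicate number, which is also the slide column, as a block, at 0.78 (adjusted p = 0.0723). It also ended in 2 fits without 3 arrays, at 0.82 (adjusted p = 0.103) without those of lowest muscle signal and at 0.83 (adjusted p = 0.094) without those out of the detection limit range. Both fits without 3 arrays were chosen after seeing the data and leave 5 arrays.

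The kinase receptors that betaglycan serves did not follow it past the threshold. Tgfbr2, the type II receptor for TGF-beta, averaged 3.04 ± 0.067 with E7386 and 3.25 ± 0.17 with vehicle (SD, n = 4 each), a log2 change of -0.21 (SE 0.098, adjusted p = 0.366). Its second probe gave -0.11. Tgfbr1, the type I receptor, was at -0.021, with a 95% interval of -0.20 to 0.16, and at 0.014 on a dimmer probe. Acvr2b, a type II receptor for activins and some BMPs, was higher on every E7386 array. Its signals were 1.73, 1.80, 2.01 and 1.73 in E7386 replicates 1 to 4, against 1.28, 1.26, 1.60 and 1.70 in vehicle replicates 1 to 4. The vehicle arrays fell into a lower and a higher pair, the higher of which nearly reached the E7386 arrays, and the log2 change of 0.36 (SE 0.13) did not pass (adjusted p = 0.235). Acvr2a, the closest relative of Acvr2b, was at 0.095 and 0.072 on its 2 probes.

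Of the BMP type I receptors, 0 of 3 were called (limma, with 0 at an unadjusted p under 0.05). Bmpr1a, the BMP receptor whose loss from follicle epithelium blocks hair shaft differentiation in mice, was at -0.077, with a 95% interval of -0.23 to 0.071. Bmpr1b was at -0.30 (SE 0.15, adjusted p = 0.392), and its dimmer probe, well above background on 2 of 4 E7386 and 4 of 4 vehicle arrays, was at -0.15. Acvr1, another type I receptor, differed by -0.00012, and by -0.085 on a dimmer probe, with E7386 replicates 2 and 3 above all vehicle arrays on the brighter. Bmpr2, the main BMP type II receptor, was at 0.078. Across the 9 receptors 1 was called higher and 0 lower, and 4 had a higher mean with E7386 and 5 a lower one.

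Among ligands, 0 of 9 were called in either direction (limma, with 1 of 9 higher and 0 lower at an unadjusted p under 0.05). That 1 was Bmp4, a BMP made in follicle mesenchyme and matrix. Its signals were 3.59, 3.79, 3.65 and 3.98 in E7386 replicates 1 to 4, against 3.44, 3.66, 3.48 and 3.43 in vehicle replicates 1 to 4. The ranges overlapped through vehicle replicate 2, and the log2 change was 0.25 (SE 0.11, adjusted p = 0.319). Bmp2, the other ligand of its subgroup, was at 0.074, Bmp3, which opposes osteogenic BMPs, at 0.17, Bmp6 at -0.026 and Bmp7 at -0.038. Tgfb1 was at -0.18 (SE 0.10, adjusted p = 0.439) and Tgfb3 at -0.20 (SE 0.14, adjusted p = 0.557). Tgfb2, the isoform tied to the start of hair growth, was at 0.040 and 0.054 on its 2 probes, with a 95% interval of -0.19 to 0.27 on the brighter.

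Inhba, which encodes the subunit of activin A, had the largest change of the 37 in either direction, and that size rested on 1 array. Its signals were 1.35, 1.30, 1.17 and 1.19 in E7386 replicates 1 to 4, against 0.90, -1.80, 0.82 and 0.69 in vehicle replicates 1 to 4. The E7386 arrays lay close together and above all vehicle arrays, while vehicle replicate 2 lay far below the other 3. The log2 change was 1.1 (SE 0.57, adjusted p = 0.403). Leaving out vehicle replicate 2 gave 0.45 (adjusted p = 0.105). The SD was 0.087 over E7386 arrays and 1.31 over vehicle arrays.

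**Figure D2:**
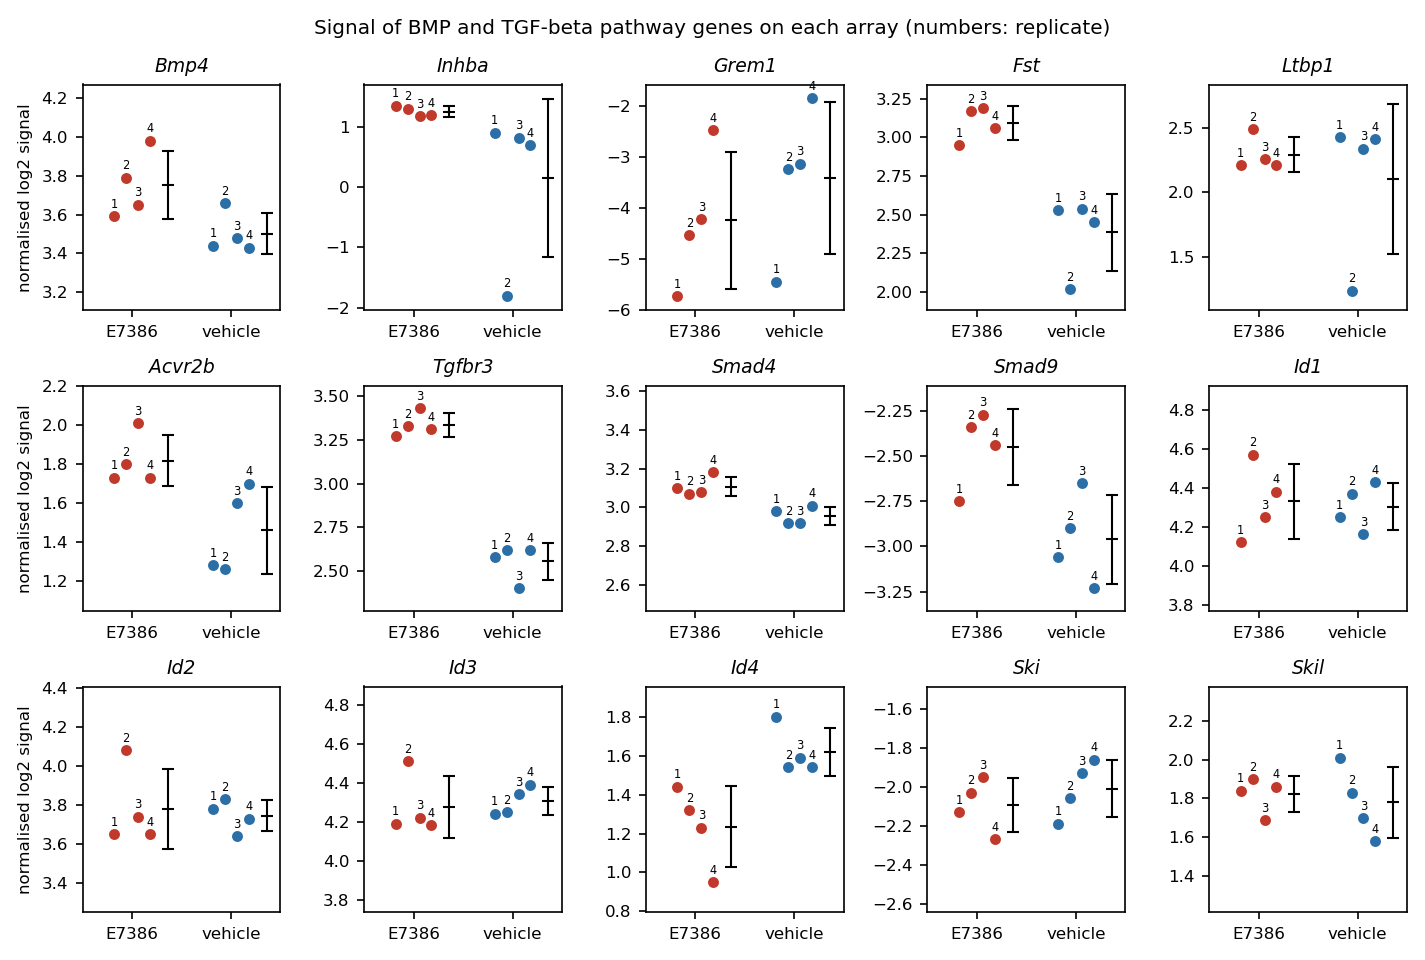
Normalised log2 signal (vertical axis) on each array for 15 genes, with E7386 in red on the left and vehicle in blue on the right of each panel. Small numbers give the replicate, and bars show the mean and SD (n = 4 each). The groups do not overlap for Tgfbr3, Fst, Inhba, Acvr2b, Smad4 and Id4, and Inhba, Fst and Ltbp1 share a low value in vehicle replicate 2.

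Among extracellular antagonists and latency proteins, 0 of 5 were called (limma, with 1 higher and 0 lower at an unadjusted p under 0.05). Fst, whose product binds activins almost irreversibly and some BMPs more weakly, came closest. Its signals were 2.95, 3.17, 3.19 and 3.06 in E7386 replicates 1 to 4, against 2.53, 2.02, 2.54 and 2.45 in vehicle replicates 1 to 4. The groups did not overlap, and vehicle replicate 2 was again the lowest array. Fst averaged 3.09 ± 0.11 with E7386 and 2.39 ± 0.24 with vehicle (SD, n = 4 each), a log2 change of 0.71 (SE 0.13, unadjusted p = 0.00058, adjusted p = 0.0506). Without vehicle replicate 2 the change was 0.59 (adjusted p = 0.0527). The value thus sits at the threshold. It passed in 5 of 22 alternatives at the same threshold, such as trend and robust variance options (adjusted p = 0.0249), and over all 22 its adjusted p ranged from 0.0249 to 0.194. Among those 22, it passed in 0 of the 8 fits without 1 array, and it did not pass with the replicate block (limma adjusted p = 0.135).

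The BMP antagonists noggin, chordin and gremlin differed among themselves. Nog averaged 2.27 ± 0.28 with E7386 and 2.17 ± 0.71 with vehicle (SD, n = 4 each). Its vehicle arrays split into 2.92 and 2.63 in replicates 1 and 2 and 1.66 and 1.48 in replicates 3 and 4, with the E7386 arrays, at 1.87 to 2.47, in between. The log2 change of Nog was 0.095, with a 95% interval of -0.67 to 0.86. Chrd, encoding chordin, was at 0.34 (SE 0.16, adjusted p = 0.352). Summed hair shaft and matrix markers showed the same split among vehicle arrays, at 1790 and 2110 in replicates 1 and 2 and 892 and 1050 in replicates 3 and 4, with E7386 arrays at 1510 to 2410, and their part in the spread of Nog was not tested.

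Grem1, encoding gremlin 1, was the dimmest of the 37 and was well above background on 3 of 4 arrays in each group. Its signals were -5.73, -4.53, -4.22 and -2.47 in E7386 replicates 1 to 4, against -5.44, -3.24, -3.13 and -1.85 in vehicle replicates 1 to 4. The spread within each group was larger than the difference between groups, -0.82 on the log2 scale (SE 0.87, adjusted p = 0.71). Single arrays moved that value widely, to -0.33 without E7386 replicate 1, -1.41 without E7386 replicate 4, -1.50 without vehicle replicate 1 and -0.30 without vehicle replicate 4. It was -0.32 with normexp on median signals and -2.34 without the 3 arrays out of the detection limit range. Summed muscle markers had the same order of arrays within each group, at 116, 184, 666 and 742 in E7386 replicates 1 to 4 and 86.3, 446, 569 and 661 in vehicle replicates 1 to 4. All 8 of these markers were well above background on all arrays. With a muscle score as a covariate the change of Grem1 was -0.70 (adjusted p = 0.373). In bulk tissue, fewer cells of a type and less RNA per cell cannot be told apart. Ltbp1, which holds latent TGF-beta in the matrix, had signals of 2.21, 2.49, 2.26 and 2.21 in E7386 replicates 1 to 4 and 2.43, 1.24, 2.34 and 2.41 in vehicle replicates 1 to 4. Its log2 change was 0.19 with vehicle replicate 2 and -0.10 without it.

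**Figure D3:**
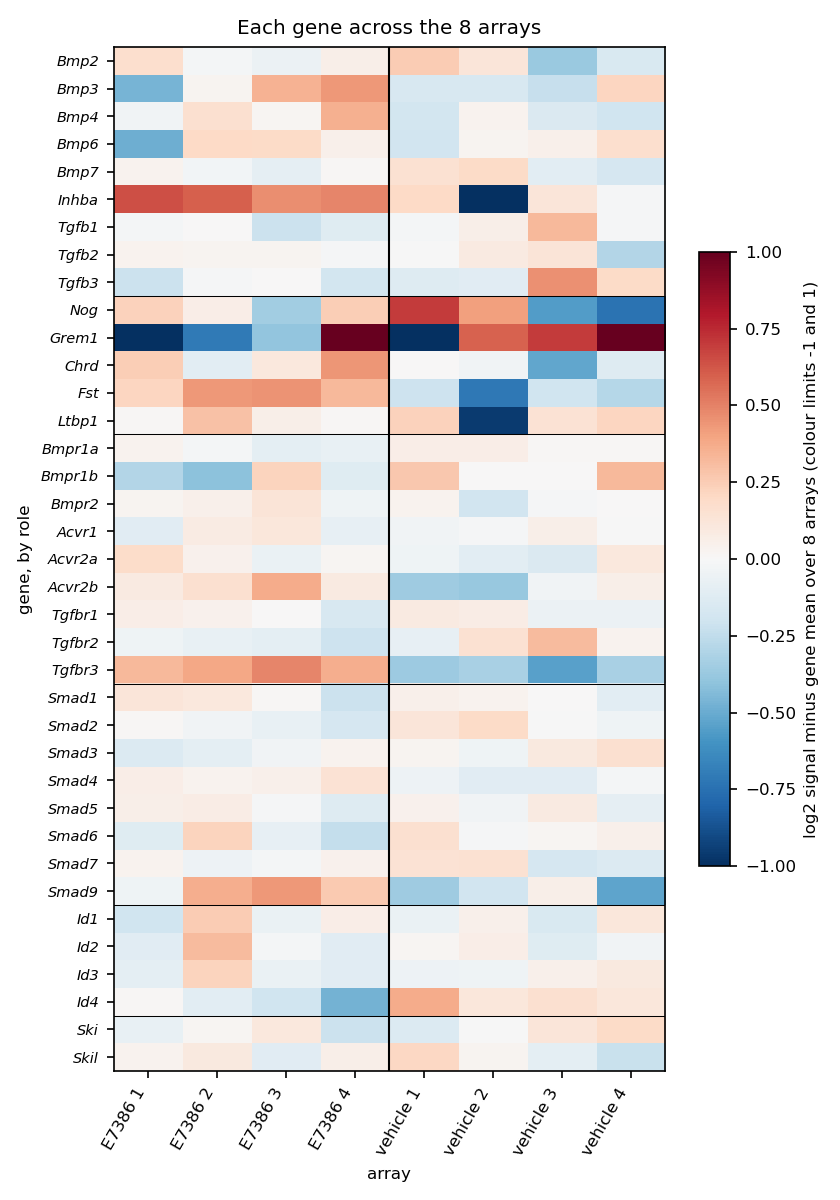
Log2 signal of each gene minus its own mean over the 8 arrays, for E7386 arrays (left of the line) and vehicle arrays (right), with genes ordered by role and colours limited at -1 and 1. Tgfbr3 and Fst are red on all 4 E7386 arrays and blue on all 4 vehicle arrays, and vehicle replicate 2 is dark blue for Inhba and Ltbp1.

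Among Smads, 0 of 8 were called (limma, with 2 higher and 0 lower at an unadjusted p under 0.05), and 7 of the 8 had changes between -0.13 and 0.15. Smad9, one of the BMP Smads, had signals of -2.75, -2.34, -2.27 and -2.44 in E7386 replicates 1 to 4, against -3.06, -2.90, -2.65 and -3.23 in vehicle replicates 1 to 4. E7386 arrays were mostly higher, with E7386 replicate 1 below vehicle replicate 3, and the log2 change was 0.51 (SE 0.15, adjusted p = 0.172). The other BMP Smads, Smad1 at 0.0066 and Smad5 at -0.00039, differed little on their brighter probes, with 95% intervals of -0.21 to 0.22 and -0.18 to 0.18. The second probe of Smad1 was at -0.093. The second probe of Smad5, well above background on all arrays, was at -0.37. It had signals of -2.59 to -2.21 with E7386 and -2.26 to -1.82 with vehicle, which barely overlapped.

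Smad4, the shared partner, had signals of 3.10, 3.07, 3.08 and 3.18 in E7386 replicates 1 to 4, against 2.98, 2.92, 2.92 and 3.01 in vehicle replicates 1 to 4. The groups did not overlap, but the log2 change was only 0.15 (SE 0.064, adjusted p = 0.322), and its second probe gave 0.19. The TGF-beta and activin Smads were at -0.13 for Smad2 and -0.12 for Smad3, with a dimmer probe of Smad3 at 0.036. The feedback inhibitors Smad6, at -0.11, and Smad7, at 0.00037, are themselves induced by the pathway, and their 95% intervals were -0.36 to 0.13 and -0.22 to 0.22. The corepressors Ski and Skil hold Smad targets silent. Ski had signals of -2.13, -2.03, -1.95 and -2.27 in E7386 replicates 1 to 4 and -2.19, -2.06, -1.93 and -1.86 in vehicle replicates 1 to 4. Skil had 1.84, 1.90, 1.69 and 1.86 in E7386 replicates 1 to 4 and 2.01, 1.83, 1.70 and 1.58 in vehicle replicates 1 to 4. Both overlapped between groups, with changes of -0.084 and 0.040. A dimmer probe for Skil was at -0.13.

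Id genes encode helix-loop-helix proteins without a DNA-binding region, which sequester bHLH factors. The sequences before the starts of Id2, Id3 and Id4 are shown because these genes are the pathway's textbook transcriptional targets, and because Id4 was set apart from the others in signal. Each is the 250 bases before the start from RefSeq (GRCm38.p6), on the gene's own strand, and the entry for Id1 was not in the table used. Capitals mark matches to 2 published Smad motifs on either strand, the Smad box (CAGAC, or GTCTG on the other strand) and the GC-rich element bound by BMP Smads (GGCGCC, its own reverse complement).
Id2, chr12:25096093-25096342, minus strand: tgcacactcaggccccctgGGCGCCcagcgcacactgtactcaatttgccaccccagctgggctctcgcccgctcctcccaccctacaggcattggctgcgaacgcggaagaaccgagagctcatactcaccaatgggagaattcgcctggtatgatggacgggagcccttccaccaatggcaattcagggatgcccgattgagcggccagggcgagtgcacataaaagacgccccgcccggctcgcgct
Id3, chr4:136143572-136143821, plus strand: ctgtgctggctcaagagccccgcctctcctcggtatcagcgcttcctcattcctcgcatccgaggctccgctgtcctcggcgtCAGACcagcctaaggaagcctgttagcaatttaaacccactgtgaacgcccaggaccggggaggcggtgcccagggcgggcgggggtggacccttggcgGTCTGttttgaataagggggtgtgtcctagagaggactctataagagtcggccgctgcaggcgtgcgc
Id4, chr13:48260866-48261115, plus strand: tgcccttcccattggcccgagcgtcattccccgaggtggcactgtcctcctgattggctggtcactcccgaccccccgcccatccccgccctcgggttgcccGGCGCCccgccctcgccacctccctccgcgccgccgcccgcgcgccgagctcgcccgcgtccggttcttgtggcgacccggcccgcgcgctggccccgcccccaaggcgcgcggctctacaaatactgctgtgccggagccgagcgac
Id2 and Id4 hold 1 GC-rich element each and no Smad box, and Id3 holds 2 Smad boxes and no GC-rich element. The Smad box is found in 42.2% and the GC-rich element in 9.59% of 32851 promoter windows of the same length, and GC content was 62.8% for Id2 and Id3 and 75.6% for Id4.

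Of the 4 Id genes 0 were called (limma, with 1 lower at an unadjusted p under 0.05), and Id1, Id2 and Id3 differed by 0.033, 0.033 and -0.028. Id1 had signals of 4.12, 4.57, 4.25 and 4.38 in E7386 replicates 1 to 4, against 4.25, 4.37, 4.16 and 4.43 in vehicle replicates 1 to 4. Id2 had 3.65, 4.08, 3.74 and 3.65 in E7386 replicates 1 to 4, against 3.78, 3.83, 3.64 and 3.73 in vehicle replicates 1 to 4. Id3 had 4.19, 4.51, 4.22 and 4.18 in E7386 replicates 1 to 4, against 4.24, 4.25, 4.34 and 4.39 in vehicle replicates 1 to 4. For all 3 genes E7386 replicate 2 was the highest array of its group, and the groups overlapped. The 95% intervals ran from -0.23 to 0.30 for Id1, -0.22 to 0.29 for Id2 and -0.24 to 0.19 for Id3.

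Id4 had the largest change of the 4 Id genes. Its signals were 1.44, 1.32, 1.23 and 0.95 in E7386 replicates 1 to 4, against 1.80, 1.54, 1.59 and 1.54 in vehicle replicates 1 to 4. All E7386 arrays lay below all vehicle arrays, and Id4 was the only 1 of the 37 genes to separate in that direction, against 5.7% of all genes. The log2 change was -0.38 (SE 0.12, unadjusted p = 0.012, adjusted p = 0.188), and it did not pass in any of 22 alternatives, where it ranged from -0.47 to -0.24. Summed dermal papilla markers were 12.9 to 15.9 with E7386 and 13.5 to 17.5 with vehicle, and 7 of these 8 markers had lower means with E7386. The exception, Prom1, had the smallest p of the list and was higher on every E7386 array (log2 change 0.47, limma adjusted p = 0.0742). By contrast, 0 of the 8 were lower on every E7386 array. All but Corin, well above background on 1 E7386 and 4 vehicle arrays, were well above background on all arrays. The part of that cell type in the value of Id4 was not tested.

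The wider pathway was read through 51 further ligands, antagonists, receptors, latency factors and modulators, of which 46 were tested, and through 20 genes often induced by TGF-beta or BMP. Bmp5, Gdf6, Gdf11, Sost and Bambi did not pass the filter on dim probes. Among the 46, 0 were called in either direction (limma, with 4 higher and 1 lower at an unadjusted p under 0.05). Of all genes, 7.47% were higher and 7.72% lower at that unadjusted limma p. All E7386 arrays lay above all vehicle arrays for 2 of the 46, where 4.83% of all genes did so. They lay below for 1 of the 46, where 5.7% of all genes did so. The median change of the 46 was 0.015. Tgif1, a homeobox corepressor of Smad2 and Smad3, had signals of 3.11, 3.32, 3.33 and 3.24 in E7386 replicates 1 to 4, against 2.83, 2.86, 2.98 and 2.63 in vehicle replicates 1 to 4. The groups did not overlap, at a log2 change of 0.42 (SE 0.096, adjusted p = 0.091). Its relative Tgif2 was at -0.52 (SE 0.23, adjusted p = 0.341), and at -0.29 without E7386 replicate 4, -0.28 with probes averaged and -0.21 with normexp.

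Inha, the inhibin subunit whose product binds betaglycan, was also higher on all E7386 arrays. It had -0.63, -0.49, -0.47 and -0.76 in E7386 replicates 1 to 4, against -1.21, -1.24, -0.95 and -0.88 in vehicle replicates 1 to 4 (log2 change 0.49, SE 0.11, adjusted p = 0.095). Eng, encoding the coreceptor endoglin of endothelium, was at 0.99 (SE 0.37, adjusted p = 0.266), with E7386 arrays from 1.96 to 3.51 and vehicle arrays from 1.29 to 2.46. Summed endothelial markers, of which Kdr was the brightest, were 16.6 to 20.5 with E7386 and 16 to 18.5 with vehicle. Of these 6 markers, 3 had higher and 3 had lower means with E7386. The BMP antagonist Chrdl1 was at 0.28 (SE 0.11, adjusted p = 0.295).

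Among the 20 response genes, 0 were called higher and 1 lower (limma, with 1 higher and 1 lower at an unadjusted p under 0.05). Of all genes tested, 0.753% were called higher and 0.367% lower. Means were higher with E7386 for 16 of the 20 and lower for 4, or 20%, against 48% of all genes. The median change was 0.10, against 0.0088 over all genes. The gene called lower was Acta2, which encodes smooth muscle actin of vessels, arrector muscles and the dermal sheath. It had 2.87, 2.67, 2.71 and 2.48 in E7386 replicates 1 to 4, against 3.45, 3.44, 3.37 and 3.23 in vehicle replicates 1 to 4, with no overlap. The log2 change was -0.69 (SE 0.10, adjusted p = 0.0213), a call kept in 2 of the 8 fits without 1 array, those without E7386 replicate 1 and without vehicle replicate 4. In the other 6 fits the adjusted p was 0.0665, 0.0857 and 0.0607 when E7386 replicates 2, 3 and 4 were left out in turn, and 0.0657, 0.0704 and 0.0734 for vehicle replicates 1, 2 and 3. The Acta2 call also ended with the replicate block (adjusted p = 0.0609) and without the 3 low-muscle or the 3 out-of-range arrays (adjusted p = 0.128 and 0.148). Tagln, which encodes an actin-binding protein of smooth muscle, was at 0.15 (SE 0.068, adjusted p = 0.358), opposite in sign to Acta2. Its groups did not overlap either, at 4.87 to 5.06 with E7386 and 4.81 to 4.85 with vehicle.

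Among other response genes, Tgfbi, a secreted matrix protein, was at 0.34, Cdkn1a at 0.16 and Col1a1 at -0.32, all short of the threshold. Col1a1 was at -0.21 without vehicle replicate 2 and -0.49 without vehicle replicate 4, and Cdkn1a was at -0.083 with probes averaged. Of the rest, these were chosen after their values were seen. Ccn2, a matricellular protein induced by TGF-beta, was at 0.36 (SE 0.24, adjusted p = 0.523). Msx2 and Hoxc13, homeobox genes of the hair matrix downstream of BMP, were at 0.093 and 0.010, and Dlx3 was at 0.0048.

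**Figure D4:**
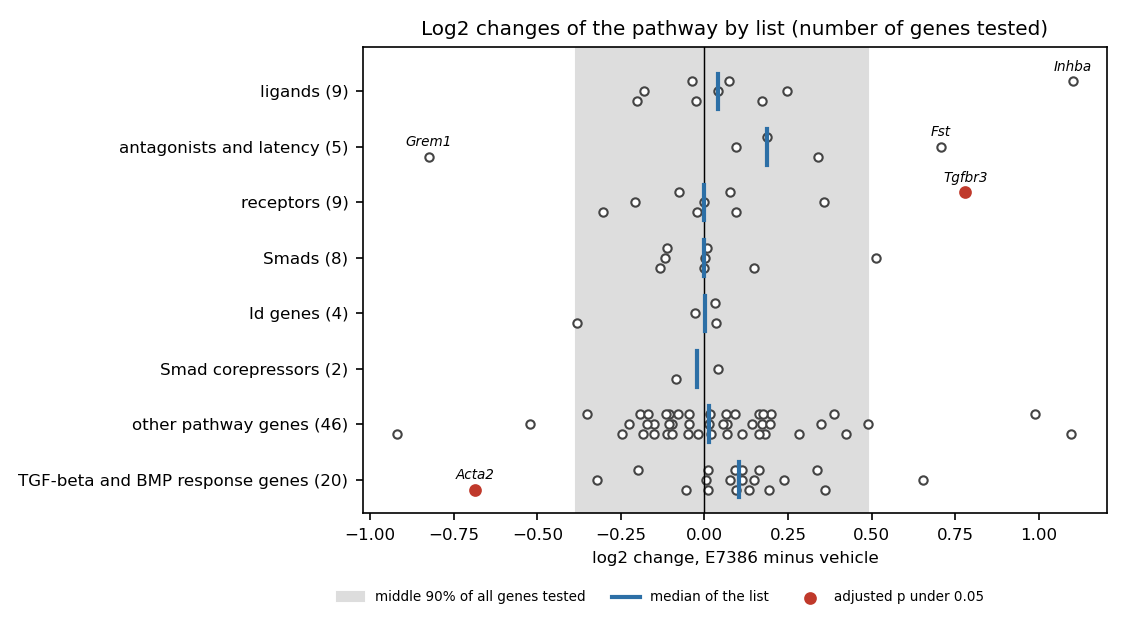
Log2 change (E7386 minus vehicle, horizontal axis) of every tested gene of 8 lists, with the number tested in brackets, blue lines at list medians and red points for adjusted p under 0.05. The grey band holds the middle 90% of all genes tested, from -0.38 to 0.49, and most genes of each list lie inside it.

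Of the other cell types the tissue could hold, sebaceous gland markers were the list whose summed signal did not overlap, at 13.8 to 18.1 with E7386 and 11.4 to 13.6 with vehicle, in the same direction as Tgfbr3 and Fst. All 7 of these markers had higher means with E7386 and were well above background on all arrays, and 1, Dgat2l6, was called (log2 change 0.77, limma adjusted p = 0.0339). Of all genes tested, 48% had lower means with E7386 and 0.753% were called higher. Taken singly, 3 of the 7 markers did not overlap between groups, against 4.83% of all genes with E7386 higher. The brightest, Elovl3, Awat1 and Dgat2l6, are lipid enzymes of the gland, and Elovl3 and Awat1 were at 0.13 and 0.57. Summed signals of fat were 56.0 to 94.6 with E7386 and 39.7 to 87.7 with vehicle, those of dermal fibroblasts 564 to 646 and 547 to 714, those of Schwann cells 27.0 to 42.6 and 28.5 to 31.8, and those of macrophages and T cells 16.6 to 23.8 and 18.8 to 23.1, in the same order of groups. The fat sum followed its brightest marker, Fabp4. Dimmer fat markers varied more, such as Adipoq, at -2.76 to -0.43 with E7386 and -4.27 to -0.92 with vehicle. Means were higher with E7386 for 5 of the 6 fat markers and lower for 1, and 0 were called. Markers of outer root sheath summed to 1140 to 1360 with E7386 and 1270 to 1350 with vehicle, and those of inner root sheath to 1460 to 1920 and 1430 to 1850. The part of the sebaceous markers in the values of Tgfbr3 and Fst was not tested.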

How the data were processed

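RNA from 4 E7386 and 4 vehicle samples was hybridised to 8 1-colour arrays. The authors obtained spot intensities with Feature Extraction (the file headers give release 11.5.1.1, the submitters' processing notes 11), and the processed signal is corrected for background within each array. The log2 values in the table deposited by the authors rank probes as the scanner files do (Spearman correlation of 1.0000 on each array) and have a median of 5.31 in each column, and they served as an alternative.

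Here, spots marked as non-uniform or as population outliers were left out, log2 processed signals were averaged per probe, and each array's 75th percentile was subtracted. Names came from RefSeq accessions matched to GRCm38.p6, which named 27509 of 55681 probes. Of 37018 genes, counting transcripts left under the file's own name and each represented by its brightest probe, 25353 were well above background on at least 3 arrays of either group and were tested with lmFit and eBayes in limma 3.58.1 (R 4.3.3), with Benjamini-Hochberg adjustment over all 25353 at 0.05. The lmFit and eBayes step alone was run on simulated arrays with the measured genes' means and spreads, drawn independently. Probe choice, scaling and the filter were not part of that simulation. At the adjusted threshold it recovered 1.65% of known log2 changes of 0.25, 32.6% of 0.5, 65% of 0.75 and 79.1% of 1. Smaller changes were thus mostly missed at this number of arrays.

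The genes, the lists and the tests were chosen with earlier results of these data known. Values per array are given for genes past the adjusted threshold or with an unadjusted p under 0.05, for the 4 Id genes and for the 2 largest changes of each role group, and Ltbp1 and Nog were added after their values were seen. From the wider lists, called genes and the 6 smallest p of each list were to be named, and some of these are not reported here. The mean signal planned for normexp was not used here, and median signals took its place. Alternatives covered scaling, filters, probes, variance options, weights, a replicate block and left-out arrays.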

Additional observations from a re-analysis of the deposited data

Results flagged for a closer look

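In 5 of the 74 groups of 4 arrays that the 37 genes give, or 6.76%, a single array stood apart from the other 3 by Dixon's criterion, where chance flags about 1 in 20. Vehicle replicate 2 was low for 3 genes. It had a signal of -1.80 for Inhba, where the other vehicle arrays had 0.69 to 0.90, of 1.24 for Ltbp1, where they had 2.34 to 2.43, and of 2.02 for Fst, where they had 2.45 to 2.54. Over all genes, this array stood apart on the low side in 0.845% of them, and the share for the other 7 arrays ran from 0.486% to 0.888%. Vehicle replicate 4 was high for Bmp3, at -2.45 where the other vehicle arrays had -2.90 to -2.83. E7386 replicate 2 was high for Id3, at 4.51 where the other E7386 arrays had 4.18 to 4.22.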

How the results depend on the processing

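Of 23 alternatives, 19 were planned and 4 were added after seeing the data. 0 genes of the 37 were called lower in any of the 23, and the median change over them ranged from -0.07 to 0.06. The 37 genes held 2 calls, Tgfbr3 and Fst, with detection required on all 8 arrays, with probes averaged, with trend and robust options, with array weights, with normexp on median signals and at an adjusted p under 0.1. They held 0 calls with the replicate block, without the 3 arrays of lowest muscle signal and without the 3 arrays out of the detection limit range. Without 1 array the count stayed at 1. All genes called, 284 in the report, numbered 154 with no filter, 687 at 0.1, 577 with the muscle covariate, 59 with the replicate block, 48 without the low-muscle arrays, 0 without the out-of-range arrays (3611 at an unadjusted p under 0.05) and 88 to 240 without 1 array. Genes called in the 2 wider lists, of 46 and 20 genes tested, numbered 3 at 0.1, 2 with the muscle covariate and 0 to 1 without 1 array. They numbered 0 with the replicate block, without the low-muscle arrays and without the out-of-range arrays. In these limma fits 11, 9 and 9 genes of the wider lists had an unadjusted p under 0.05, against 4261, 3750 and 3611 of all genes. Same-numbered samples had correlations of their deviations from the group means of 0.49, -0.17, 0.29 and 0.18, so the numbers were not taken to pair samples, though they also mark the slide column, and the replicate block gave Tgfbr3 0.78 (adjusted p = 0.0723) and Acta2 -0.69 (adjusted p = 0.0609). Among uncalled values, signs turned for Id1 (-0.044 with array medians, -0.0018 with normexp, -0.0013 without low-muscle arrays, -0.048 without E7386 replicate 2, -0.015 without vehicle replicate 3), Id2 (-0.044, -0.039, -0.066 and -0.0044 in the same fits except normexp), Skil (-0.037 with array medians, -0.046 with probes averaged, -0.027 without vehicle replicate 4), Cdkn1a (-0.083 with probes averaged) and Id3 (0.004 without E7386 replicate 4). Without 1 array the farthest opposite values were 0.076 for Id2, -0.11 for Id3 and 0.12 for Skil. Signs also turned in at least 1 alternative for 12 of the 23 other genes, none past 0.19 in size in the report. Array medians moved the median of all genes to -0.068, against 0.009. The causes were not tested.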
